A study of Mus musculus with 4 samples.

Results

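The genes described here are 5 receptors of the TREM family (Trem1, Trem2, Trem3, Treml2 and Treml4), the signalling adaptors Tyrobp (DAP12) and Hcst (DAP10), the kinase Syk and the receptor Pirb. They were taken by name, as every probe set of the array that is annotated with 1 of these symbols and no other. All 9 genes were found, on 17 probe sets, out of 18193 genes that a single-symbol probe set names. The array data compare 2 samples of granulocytic myeloid-derived suppressor cells (G-MDSC) with 2 samples of neutrophils. All mice were C57BL/6 females. G-MDSC, immature granulocytes that build up in tumour-bearing mice, carried the surface phenotype CD11b+Ly6G+Ly6Clow. They were selected for Ly6G on microbeads from the spleens of mice given EL4 lymphoma cells under the skin 3.5 weeks before. Neutrophils were washed from the peritoneum of mice without mention of a tumour. Those mice had received 1.5 ml of 12% casein, an inflammatory milk protein, into the peritoneum on 2 occasions 16 h apart and were killed 3 h later. The neutrophil preparation was depleted of F4/80-bearing cells and then selected for Ly6G, and red cells were lysed in all samples. Cell kind, tissue, tumour, casein and sorting scheme changed together and cannot be told apart. The labels name no separate mice within a group. Each p-value therefore reflects sample-to-sample spread alone, estimated in part from other genes, and that spread may be technical.

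TREM receptors are single-span membrane proteins of myeloid cells with 1 immunoglobulin-like domain outside the cell. Most of them have almost no cytoplasmic tail and signal through DAP12, whose tail carries an immunoreceptor tyrosine-based activation motif (ITAM). When the receptor is engaged, Src-family kinases phosphorylate the ITAM and Syk binds to it. DAP10 carries a different motif that recruits phosphoinositide 3-kinase. TREM-1 is known as an amplifier of inflammatory responses in neutrophils and monocytes, and TREM-2 as a receptor of macrophages, microglia and osteoclasts. Pirb is listed with the others but is an inhibitory receptor, with ITIM motifs that recruit the phosphatases SHP-1 and SHP-2.

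The arrays gave MAS5 signals in arbitrary units. A probe set counted as dim in an array where its signal lay at or below that array's 40th percentile, which was 45.7 and 52.6 in the G-MDSC arrays and 51.4 and 132.7 in the neutrophil arrays. Neutrophils replicate 2 thus stood apart, with a higher low end than the other arrays. Of 17 neutrophil markers tested, 16 were above the 40th percentile in all 4 arrays. In G-MDSC 9 were called higher, Mpo and Camp among them, and 0 lower. S100a8, S100a9, Csf3r and Itgam were not called. The summed signal of the 17 markers was 397309 and 461243 in the G-MDSC arrays, against 272234 and 325350 in the neutrophil arrays. Some markers of other cell types were also called. Among all genes tested, 8.3% were called higher and 8.05% lower in G-MDSC, and the counts below stand beside these shares. In G-MDSC, 15 of 26 macrophage markers fell and 1 rose. The summed macrophage signal was 22985 and 21902 in the G-MDSC arrays, against 56263 and 89387 in the neutrophil arrays. Of 13 monocyte markers, 7 were lower and 0 higher. Their sums were 51465 and 66221 in the G-MDSC arrays and 130547 and 182332 in the neutrophil arrays. Such sums lean on the brightest probe sets and do not measure the content of a cell type. Csf1r, in both lists, read 11012 and 11272 in the G-MDSC arrays, against 16081 and 17388 in the neutrophil arrays. No macrophage or monocyte marker was dim in both G-MDSC arrays, though Dab2 (49.2 and 45.4) and Msr1 (65.1 and 75.1) were near that level there. In all 4 arrays, 20 of the 26 macrophage and 13 of the 13 monocyte markers were above the 40th percentile. In G-MDSC, calls were 8 lower of 15 dendritic cell markers, 5 lower and 1 higher of 10 mast cell and basophil markers, and 3 lower of 13 platelet markers. Calls were 2 lower and 3 higher of 13 B and plasma cell markers, 2 lower and 1 higher of 12 T and NK cell markers, and 0 of 8 erythroid markers. The part of these cells in any difference given here was not tested. In such bulk samples, fewer cells of a type and less RNA per cell cannot be told apart.

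Treml4 alone among the members fell in G-MDSC, and none rose. Trem1, Trem3, Tyrobp and Syk, the core of the pathway, had strong signals in both cell kinds, with differences near 0 on their brightest probe sets. The other Trem1 probe set, also bright, was lower in both G-MDSC arrays, at -0.80, without passing the test. Pirb, Hcst and Treml2 had higher signals in G-MDSC without passing the test, and Trem2 was dim in all 4 arrays. By limma, on log2(signal + 16) with each gene taken from its brightest probe set, 1 of the 8 members tested had an adjusted p under 0.05. Among all 13139 genes tested 16.4% were called, 8.3% higher and 8.05% lower in G-MDSC, so the members' share lies near that background. The split of calls over all genes depended on the setting, with 915 higher and 395 lower under median scaling, and 148 higher and 331 lower with no intensity trend. The unadjusted p was under 0.05 for 3 members, Treml4, Pirb and Hcst, and for 29.6% of all genes. The arrays of the groups did not overlap for 5 of 8 members, 4 higher and 1 lower in G-MDSC. Of all genes 59.5% do not overlap, 27.3% higher and 32.2% lower. The median log2 difference of the 8 members was 0.14 against -0.18 for all genes, and their median absolute difference was 0.46 against 0.66. The all-gene median depended on the setting. It was 0.05 with the filter at the 60th percentile and 0.03 with quantile normalization, so the offset of the members depends on it too. An exact permutation test of 2 arrays against 2 cannot give a p below 0.33, and none was run.

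**Figure D1:**
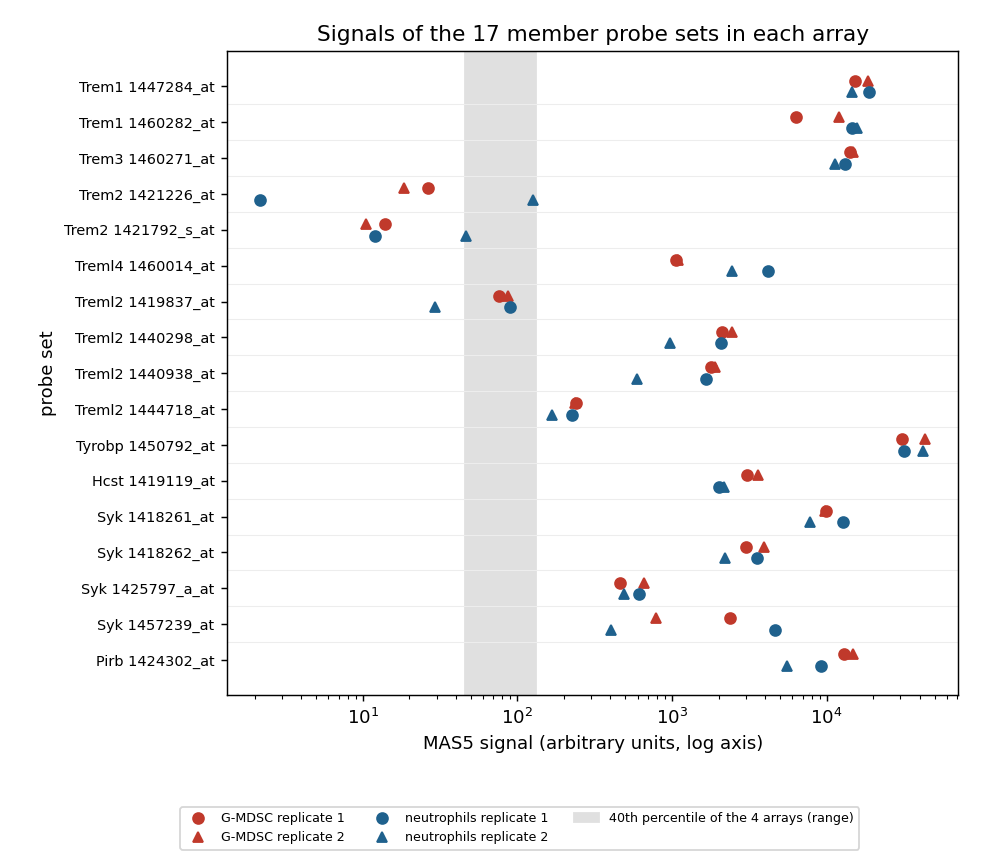
Signals of the 17 member probe sets, 1 row each, on a log axis, with G-MDSC above neutrophils in each row and replicates 1 and 2 as circles and triangles; the grey band spans the 40th percentiles of the arrays, 45.7 to 132.7. Both Trem2 rows lie within or below the band, and the Treml4 row is the one with the G-MDSC points well to the left of the neutrophil points. Signals compare within a row only.

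Trem1, the inflammatory amplifier, was measured by 2 probe sets that did not give the same picture. On probe set 1447284_at its signal was 15254 and 18477 in the G-MDSC arrays, against 18792 and 14530 in the neutrophil arrays. These values interleave, and the log2 difference, G-MDSC minus neutrophils here and throughout, was 0.02 ± 0.31 (SE, 2 arrays each; limma adjusted p = 0.968). Its 95% confidence interval was -0.66 to 0.71.

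On probe set 1460282_at Trem1 gave 6352 and 12049 in the G-MDSC arrays, against 14689 and 15825 in the neutrophil arrays. Both G-MDSC arrays were below both neutrophil arrays, with G-MDSC replicate 1 the lowest. In the fit over 28754 probe sets the difference came to -0.80 ± 0.36 (SE, 2 arrays per group; limma adjusted p = 0.233), not past the threshold. In that fit 8.03% of probe sets were called, 3.72% higher and 4.31% lower in G-MDSC, and Treml4 supplied the 1 called probe set of the members' 15. Over all probe sets, 54.6% do not overlap between the groups. Trem3, which in mice sits next to Trem1 and also pairs with DAP12, read 14263 and 14764 in the G-MDSC arrays, against 13084 and 11302 in the neutrophil arrays. The groups were separate but close, at a difference of 0.25 ± 0.30 (limma adjusted p = 0.602; 95% interval -0.40 to 0.91).

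Treml4, a receptor described in mice on macrophages and dendritic cells, was the called member. Its signal was 1061 and 1094 in the G-MDSC arrays, against 4169 and 2451 in the neutrophil arrays. The G-MDSC arrays nearly coincided, and both neutrophil arrays lay above them. The log2 difference came to -1.56 ± 0.34 (SE, 2 arrays per group; limma adjusted p = 0.00962; 95% interval -2.30 to -0.82), or 2.94-fold lower in G-MDSC. The macrophage, monocyte and dendritic cell lists had lower medians in G-MDSC as well, though 1 macrophage marker, Vcam1, was called higher (3.58 ± 0.67). Adgre1, the F4/80 antigen, read 817 and 643 in the G-MDSC arrays, against 4847 and 7136 in the neutrophil arrays. The part of such cells in the difference of Treml4 was not tested. The call remained without any 1 of the 4 arrays, with differences of -1.94 to -1.17. It was lost under 4 of 16 other settings, with a difference of -0.93 under median scaling, where the median gene stood at 0.42 (limma adjusted p = 0.581). Over the 16 settings the limma adjusted p of Treml4 was 0.581 at most.

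The 5 TREM genes lie together on mouse chromosome 17, in the order Trem1, Trem3, Treml4, Treml2, B430306N03Rik (Treml6), Trem2 and Treml1. Upstream sequences of 3 of them are shown because their signals took 3 different courses, with Treml4 lower in G-MDSC, Trem1 bright in all arrays and Trem2 dim in all. Each runs 5′ to 3′ from 250 bases before to 50 bases after the annotated start, from RefSeq on GRCm38.p6, plus strand. The RefSeq table matched 6 of the 9 members. Capitals mark matches on either strand to GAGGAA (the core of PU.1 and other ETS sites), TTGCNNAA (C/EBP) or TGANTCA (AP-1), none of which overlap in these windows.
Treml4, chr17:48264045-48264344: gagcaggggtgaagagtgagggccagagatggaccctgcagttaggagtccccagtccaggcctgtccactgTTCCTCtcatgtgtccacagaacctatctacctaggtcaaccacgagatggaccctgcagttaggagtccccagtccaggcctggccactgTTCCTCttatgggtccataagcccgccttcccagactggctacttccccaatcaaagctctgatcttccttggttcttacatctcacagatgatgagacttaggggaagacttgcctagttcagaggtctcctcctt
Trem1, chr17:48232489-48232788: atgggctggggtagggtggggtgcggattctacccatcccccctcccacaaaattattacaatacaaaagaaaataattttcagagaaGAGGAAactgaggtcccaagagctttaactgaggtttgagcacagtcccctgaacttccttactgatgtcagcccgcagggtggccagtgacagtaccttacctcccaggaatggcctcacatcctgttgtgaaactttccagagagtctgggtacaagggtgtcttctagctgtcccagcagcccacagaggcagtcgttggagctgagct
Trem2, chr17:48346151-48346450: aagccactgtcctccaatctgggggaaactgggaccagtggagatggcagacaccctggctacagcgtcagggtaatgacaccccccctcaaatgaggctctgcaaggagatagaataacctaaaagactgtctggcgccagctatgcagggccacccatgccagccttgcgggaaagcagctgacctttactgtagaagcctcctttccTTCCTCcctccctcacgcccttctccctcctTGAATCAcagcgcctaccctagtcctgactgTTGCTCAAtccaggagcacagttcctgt
GAGGAA matched 2 times in the Treml4 window and 1 time each in those of Trem1 and Trem2. It is also present in 28.3% of 32851 windows of the same length. TTGCNNAA, found in 10.8% of all windows, and TGANTCA, found in 7.8%, each matched 1 time in the Trem2 window and not in the others. Such matches describe letters, not sites of binding.

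**Figure D2:**
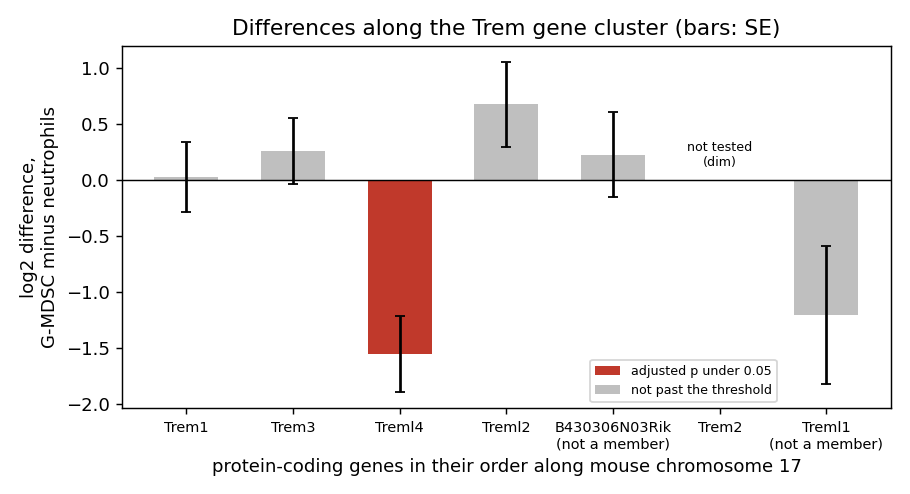
Log2 difference, G-MDSC minus neutrophils, with SE, for protein-coding genes in their order along the cluster on chromosome 17. Treml4, at -1.56, is the bar past the threshold, between Trem3 at 0.25 and Treml2 at 0.67. Trem2 was not tested because it was dim in every array. The bar of Treml1 rests on low signals and did not pass.

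No other gene of the cluster passed the test. Treml2, a receptor with a longer cytoplasmic tail found on neutrophils, macrophages and B cells, read 2111 and 2448 in the G-MDSC arrays, against 2067 and 976 in the neutrophil arrays on its brightest probe set. The G-MDSC arrays sat just above neutrophils replicate 1 and well above replicate 2. The difference came to 0.67 ± 0.38 (SE, 2 arrays per group; limma adjusted p = 0.261). Without neutrophils replicate 1 it was 1.21 and passed, in a fit with a single neutrophil array. Without neutrophils replicate 2 it was 0.14. Its other 3 probe sets differed by 0.27 to 0.88, none past the threshold. On probe set 1440938_at Treml2 gave 1788 and 1895 in the G-MDSC arrays, against 1661 and 589 in the neutrophil arrays. Neutrophils replicate 2 was again the array that stood low. Without neutrophils replicate 1 this probe set too passed, at 1.62, again with a single neutrophil array. The remaining cluster genes B430306N03Rik (0.23 ± 0.38) and Treml1, a receptor of platelets (-1.21 ± 0.61), were not called. Treml1 signals were low, at 52.9 and 91.0 in the G-MDSC arrays, against 120 and 272 in the neutrophil arrays. The highest of these was in neutrophils replicate 2, the array with the higher low end.

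Trem2 was dim throughout. Probe set 1421226_at gave 26.3 and 18.5 in the G-MDSC arrays, against 2.18 and 126 in the neutrophil arrays. The value of 126, in neutrophils replicate 2, is below the 40th percentile of 132.7 in that array. Probe set 1421792_s_at gave 14.0 and 10.5 in the G-MDSC arrays, against 12.0 and 46.8 in the neutrophil arrays. No fold is given, since no array measured Trem2 above this level.

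The adaptors were both bright. Tyrobp, the ITAM adaptor of TREM-1, TREM-2 and TREM-3, read 30884 and 43336 in the G-MDSC arrays, against 31840 and 41801 in the neutrophil arrays. In each group replicate 2 was the higher, and the groups overlapped almost completely, with a difference of 0.00 ± 0.33 (SE, n = 2 per group; limma adjusted p = 0.995; 95% interval -0.72 to 0.73). Hcst, which lies beside Tyrobp on chromosome 7, read 3050 and 3582 in the G-MDSC arrays, against 2007 and 2169 in the neutrophil arrays. The groups were separate, with a difference of 0.66 ± 0.30 (limma adjusted p = 0.165; 95% interval 0.01 to 1.31). It did not pass under any of 16 other settings, which gave 0.50 to 1.29.

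Fcer1g, the other ITAM adaptor of myeloid cells, was added after its values were seen. It read 25891 and 32325 in the G-MDSC arrays, against 31081 and 38943 in the neutrophil arrays, and differed by -0.27 ± 0.32 (limma adjusted p = 0.611).

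Syk, the kinase that binds phosphorylated ITAMs, had 4 probe sets. The brightest, 1418261_at, gave 9870 and 9789 in the G-MDSC arrays, against 12700 and 7771 in the neutrophil arrays. Both G-MDSC values fall between the neutrophil values, and the difference came to -0.02 ± 0.33 (SE, 2 arrays per group; limma adjusted p = 0.98; 95% interval -0.73 to 0.70). Probe sets 1418262_at and 1425797_a_at differed by 0.29 ± 0.34 and 0.01 ± 0.37 in the fit over probe sets. The fourth, 1457239_at, gave 2360 and 793 in the G-MDSC arrays, against 4612 and 404 in the neutrophil arrays, so Syk replicates differed far more on it than the groups did. Its difference was -0.01 ± 0.95. It turned to 1.72 without neutrophils replicate 1 and to -1.74 without neutrophils replicate 2.

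Pirb, the inhibitory receptor, read 13001 and 14771 in the G-MDSC arrays, against 9213 and 5577 in the neutrophil arrays. The groups were separate, with neutrophils replicate 2 the lowest. The difference came to 0.95 ± 0.33 (SE, 2 arrays per group; limma adjusted p = 0.0756; 95% interval 0.22 to 1.68), the largest positive difference of the 8 members and short of the threshold. It passed with quantile normalization (limma adjusted p = 0.0391). It also passed without neutrophils replicate 1 (1.31), where a single neutrophil array remained, and was 0.59 without neutrophils replicate 2. Pirb has close relatives in the Pira genes, so its signal may be shared with them, and 3 more probe sets that name Pirb together with such genes were not used.

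**Figure D3:**
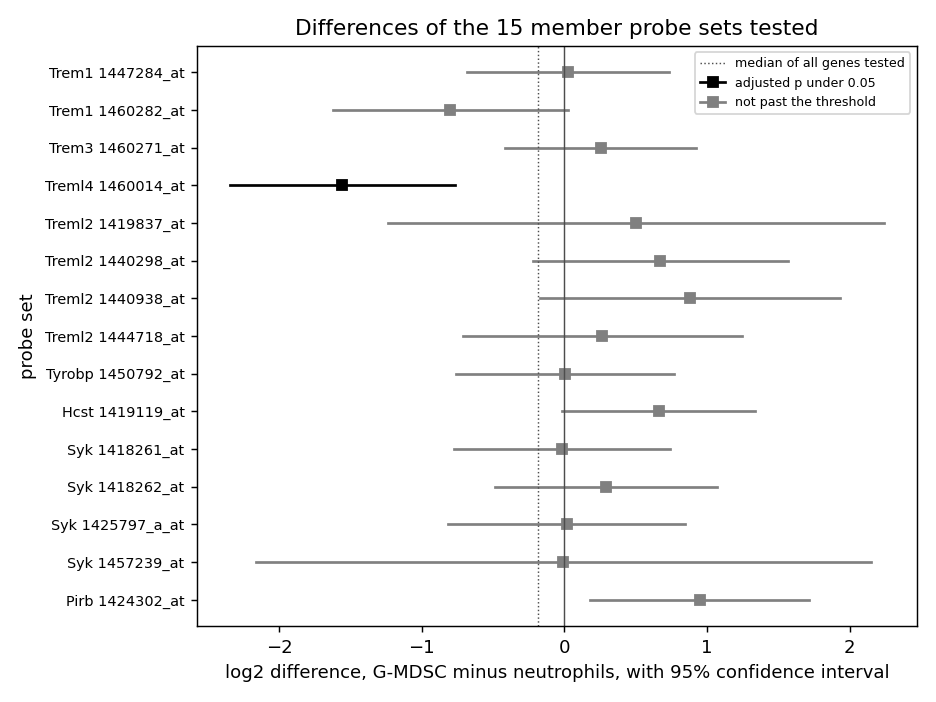
Log2 difference, G-MDSC minus neutrophils, with its 95% confidence interval, for the 15 member probe sets tested in the fit over all probe sets. The interval of Treml4 lies wholly below 0; that of Pirb lies above 0 but its adjusted p of 0.133 in this fit misses the threshold, and those of Trem1, Trem3, Tyrobp and Syk span 0.

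Around the members, genes of a list of other ITAM-coupled receptors and adaptors changed in both directions. That list also holds receptors of other kinds, Msr1 among them. Of 34 tested, 3 rose and 9 fell in G-MDSC, with a median difference of -0.45 against -0.18 for all genes. The all-gene value depended on the setting, as given above. Of the 34, 25 were above the 40th percentile in all 4 arrays. Among all genes 8.3% were higher and 8.05% lower. The number of risers here is near that share, and the number of fallers is above it. Under median scaling 3 were higher and 3 lower, and with no intensity trend 0 were higher and 3 lower. The risers were Nfam1, an ITAM-bearing receptor (1.80 ± 0.34), Cd300lb, a DAP12-coupled receptor (1.69 ± 0.30), and Sirpb1a, also coupled to DAP12 (1.44 ± 0.33). Cd300lb read 4935 and 6272 in the G-MDSC arrays, against 1706 and 1717 in the neutrophil arrays. The largest fall, of Msr1 (-5.89 ± 0.33), belongs to a scavenger receptor that is also in the macrophage list, as is Fcgr1, the high-affinity IgG receptor (-3.42 ± 0.40). Clec4n, the fungal sensor dectin-2, fell by 2.53 on the log2 scale, with 2061 and 2968 in the G-MDSC arrays, against 14195 and 14637 in the neutrophil arrays. The numbers called higher and lower in this list shifted when single arrays were left out. Sirpb1a was not called without G-MDSC replicate 2, and its difference ran from 1.15 to 1.72 with 1 array left out.

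Of 40 kinases and adaptors that act downstream of ITAMs, 4 rose and 4 fell, and 32 were not called (median difference 0.08), near the 8.3% and 8.05% of all genes. Under median scaling 1 was higher and 0 lower. Pik3ap1, which links receptors to phosphoinositide 3-kinase, fell by 2.24 on the log2 scale, with 885 and 880 in the G-MDSC arrays, against 4769 and 3733 in the neutrophil arrays. Malt1, the protease of the Card9 and Bcl10 complex, fell by 1.66, with 1659 and 1384 in the G-MDSC arrays, against 4896 and 4739 in the neutrophil arrays. These 2 calls remained with any 1 array left out, but not under median scaling (limma adjusted p = 0.276 and 0.539). Tec, a kinase (-1.33 ± 0.32), Nfatc1, a transcription factor activated by calcium (1.38 ± 0.32), Pik3cb (1.43 ± 0.37) and Prkcb, a protein kinase C (1.14 ± 0.34), were called as well. Each of these 4 calls was lost without G-MDSC replicate 1 (limma adjusted p = 0.0531, 0.11, 0.402 and 0.307 in that order) and without G-MDSC replicate 2 (0.182, 0.0991, 0.152 and 0.0944), and that of Prkcb also without neutrophils replicate 2 (0.0604). The numbers called in this list also shifted when single arrays were left out. In those fits 1 group had a single array and no spread of its own.

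Inhibitory receptors with ITIMs, the class of Pirb, were mostly not called. Of 22 tested, 0 rose, 2 fell and 20 did not pass by limma (median difference 0.08), against 8.3% higher and 8.05% lower among all genes. With median scaling, 1 ITIM receptor was higher and 0 lower. The inhibitory IgG receptor Fcgr2b read 4088 and 3943 in the G-MDSC arrays, against 20829 and 28584 in the neutrophil arrays (-2.60 ± 0.31). Clec4a3, a lectin receptor, differed by -1.95 ± 0.39. The number of ITIM receptors called higher was larger with either neutrophil array left out, where a single neutrophil array remained. Of 24 phosphatases and negative regulators, 3 rose and 3 fell, against 8.3% and 8.05% of all genes. With median scaling, 2 of them were higher and 0 lower. Pag1, which brings the inhibitory kinase Csk to the membrane, read 10399 and 11581 in the G-MDSC arrays, against 3990 and 1897 in the neutrophil arrays (1.99 ± 0.37). Dok3, an inhibitory adaptor, differed by 1.67 ± 0.33 and its relative Dok2 by -2.33 ± 0.36. Dgka, a diacylglycerol kinase (1.29 ± 0.32), was not called without G-MDSC replicate 1 or 2 (limma adjusted p = 0.274 and 0.0624), nor was Inppl1, a lipid phosphatase (-1.68 ± 0.38; 0.13 and 0.0733). Ptprj, a receptor phosphatase (-1.56 ± 0.33), was not called without G-MDSC replicate 2 (0.1). The numbers of these regulators called also shifted when single arrays were left out.

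Among 16 ligands and shedding enzymes of TREM receptors, 3 rose, 2 fell and 11 were not called, against 8.3% higher and 8.05% lower among all genes. Under median scaling 3 were higher and 0 lower. Pglyrp1, a granule protein known as a ligand of TREM-1, read 34433 and 37135 in the G-MDSC arrays, against 18041 and 11646 in the neutrophil arrays (1.30 ± 0.33; limma adjusted p = 0.0198). Cirbp, a cold-inducible RNA-binding protein that acts on TREM-1 when released, read 2460 and 3830 in the G-MDSC arrays, against 643 and 766 in the neutrophil arrays (2.10 ± 0.33). Cd177, a surface protein of neutrophils, differed by 2.04 ± 0.33. The fallers were Hspd1, a mitochondrial chaperone (-1.73 ± 0.33), and Adam17, a protease that sheds TREM-2 from human and mouse cells (-1.32 ± 0.34). Neither was called under median scaling (limma adjusted p = 0.498 and 0.699 in that order). The calls of Pglyrp1 and Adam17 were lost without G-MDSC replicate 1 (limma adjusted p = 0.0993 and 0.087) and without G-MDSC replicate 2 (0.147 and 0.112), and that of Hspd1 without G-MDSC replicate 2 (0.0818). The number lower in this list was smaller with either G-MDSC array left out.

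**Figure D4:**
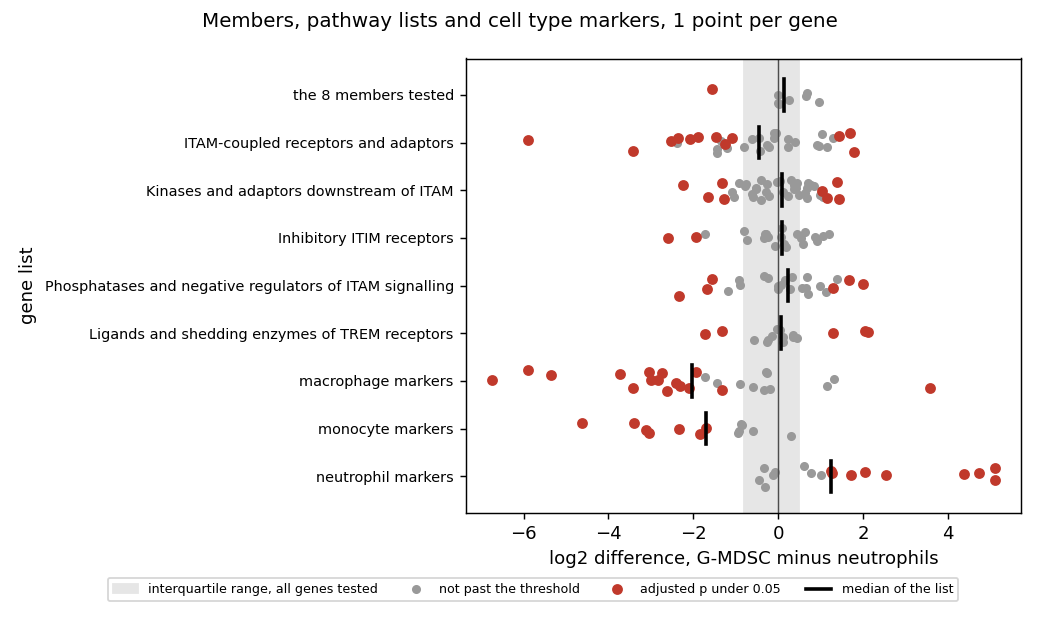
Log2 difference, G-MDSC minus neutrophils, of each gene in the members, the pathway lists and 3 marker lists, 1 point per gene (spread vertically at random), with a black line at each list's median and a grey band from the lower to the upper quartile of all genes. The members and 5 pathway lists have medians between -0.45 and 0.22, while macrophage and monocyte markers lie to the left, at medians of -2.02 and -1.71.

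**Figure D5:**
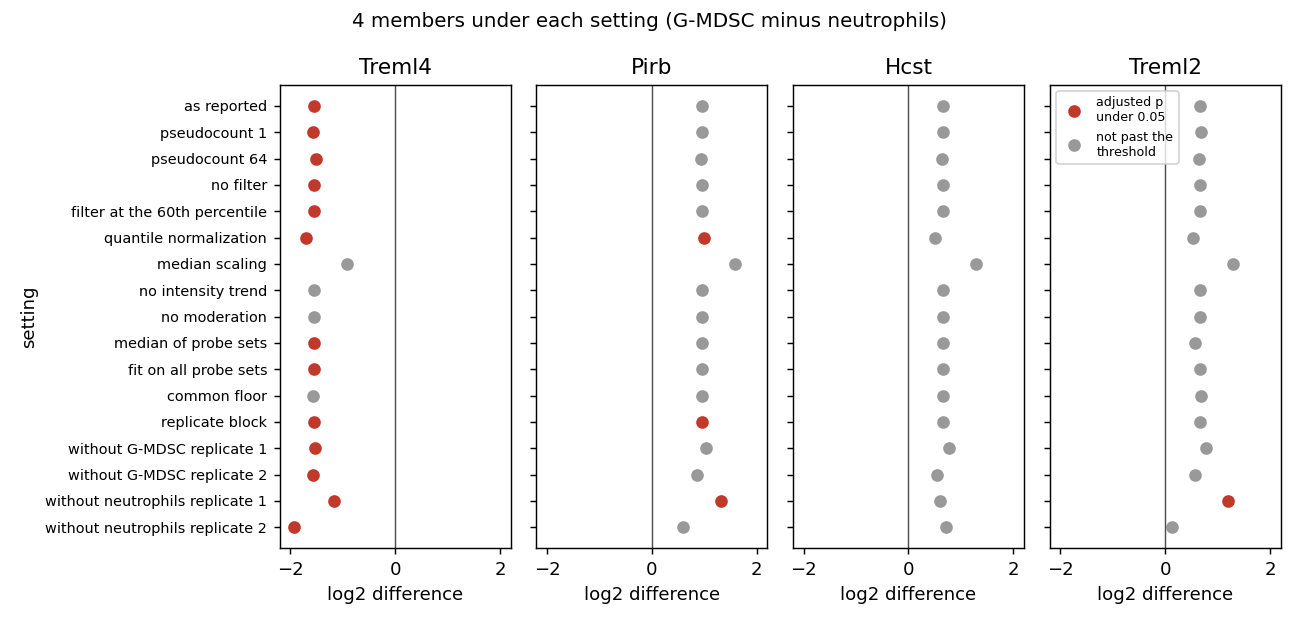
Log2 difference, G-MDSC minus neutrophils, of Treml4, Pirb, Hcst and Treml2 as reported and under 16 other settings, 1 row each. Their arrays do not overlap between the groups, so leaving 1 out could not turn a sign. Trem1, Tyrobp and Syk, whose signs turned under some settings, are not shown. Treml4 stays below 0 in every row and Pirb, Hcst and Treml2 above 0; the red points, adjusted p under 0.05, are most of the Treml4 rows, 3 of Pirb, 1 of Treml2 and none of Hcst.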

How the data were processed

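Total RNA (100 ng per labelling) of each sample was hybridised to 1 Affymetrix array. The authors deposited linear signal intensities. The submitters' processing notes name GCOS 1.4 and MAS5 as the software. The mean of each array's signal, with 2% of probe sets trimmed at either end, was 500.0. Arrays have no read depth, and having only 2 per group limits the precision. Of 45101 probe sets, 34945 carry a single symbol. Symbols were matched through gene IDs to RefSeq (GRCm38.p6, names, gene order and upstream windows only).

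Probe sets above the 40th percentile of their array in at least 2 arrays were kept. Fits used limma 3.58.1 in R 4.3.3 (lmFit, then eBayes with an intensity trend) on log2(signal + 16), where dim genes' changes are understated. Each SE is moderated, so it draws on genes of like signal as well as on the arrays of the gene itself. With no moderation the SE was 0.13 for Hcst and 1.90 for the Syk probe set 1457239_at, against 0.30 and 0.95 as reported. All tests were two-sided, with Benjamini-Hochberg adjustment over all 13139 genes or 28754 probe sets, with a threshold of 0.05. The fit was tested on simulated data. Figures used Python 3.11.15 and matplotlib 3.10.9.

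The members, lists and tests were chosen with earlier results of these data known. All members and their probe sets are named. From each pathway list the rule took up to 3 called genes per direction by size, provided the arrays separated the groups and the higher group was above the median gene. Fcer1g, Adgre1, B430306N03Rik and Treml1 were added after their values were seen. Alternatives were other pseudocounts (1 and 64), filters, normalizations, variance models, probe set choices, a floor, the replicate number as a block, and each array left out.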

Additional observations from a re-analysis of the deposited data

How the results depend on the processing

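As reported, 0 members were higher and 1 was lower in G-MDSC. The number higher was 1 with quantile normalization and 1 with the replicate block (Pirb in both). It was larger without neutrophils replicate 1, where Pirb (1.31) and Treml2 (1.21) passed with a single neutrophil array. The number lower was 0 with median scaling, with no intensity trend, with no moderation across genes and with a common floor for low signals. The last 2 settings called 0 of all 13139 genes, with 2379 and 3230 at an unadjusted p under 0.05. For Treml4 the adjusted p was 0.581, 0.0903, 0.279 and 0.129 under these 4 settings. The cause was not tested. Median scaling moved the median gene to 0.42, quantile normalization to 0.03 and the filter at the 60th percentile to 0.05, from -0.18. Relative to it, Treml4 was at -1.37 as reported, -1.34 with median scaling, -1.73 with quantile normalization and -1.60 with that filter.

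Differences of these members turned sign; ranges are those with 1 array left out. Trem1 was at -0.39 when its probe sets were combined by their median, and ran from -0.16 (neutrophils replicate 2 left out) to 0.21, with -0.12 when G-MDSC replicate 2 was left out. Tyrobp ran from -0.24 (G-MDSC replicate 2 left out) to 0.25, with -0.19 when neutrophils replicate 1 was left out. Syk was at 0.0072 with quantile normalization, 0.62 with median scaling and 0.074 when its probe sets were so combined, and ran from -0.37 to 0.34 (neutrophils replicate 1 left out). Its probe set 1418262_at ran from -0.047 (neutrophils replicate 2 left out) to 0.63. Its probe set 1425797_a_at ran from -0.23 (G-MDSC replicate 2 left out) to 0.26, with -0.14 when neutrophils replicate 2 was left out. Its probe set 1457239_at was at 0.0024 with pseudocount 1, 0.0031 with the common floor, 0.028 with quantile normalization and 0.61 with median scaling. It ran from -1.74 to 1.72 (neutrophils replicate 1 left out, where it passed), with 0.77 when G-MDSC replicate 2 was left out. Treml2 probe set 1419837_at ran from -0.11 (neutrophils replicate 2 left out) to 1.11. Where 1 array of a group was left out, the lone array was assumed to vary like the other group. Calls in those fits do not compare with the share of all genes called as reported.

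Same-numbered arrays deviated together across genes (r = 0.24), but with 2 pairs the number alone does not pair the samples. With the replicate block, Pirb passed (0.95, limma adjusted p = 0.00678), as did the Trem1 probe set 1460282_at (-0.80, 0.0444) and the Treml2 probe set 1440938_at (0.88, 0.0439), and calls over all genes were 1699 higher and 1607 lower, against 1091 and 1058. With the block, ITIM receptors had 4 higher, ITAM-coupled receptors 6, kinases and adaptors 7, and phosphatases and regulators 5 higher and 5 lower. Of the 25 genes named from the pathway lists by rule, 25 were called with the block and 7 with median scaling. With no intensity trend 5 were called, and with no moderation or the common floor 0.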
